A study of Capra hircus with 11 samples.

Results

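The cadherin genes CDH1, CDH2, CDH3 and CDH11 were followed through the conversion of goat ear fibroblasts toward mammary epithelial cells. They were chosen by symbol (CDH1 as gene17597, CDH2 as gene23075, CDH3 as gene17595 and CDH11 as gene17510) and are 4 of the 16678 gene rows over 5 tables of unique molecular identifier (UMI) counts. Cadherins are membrane proteins that hold neighbouring cells together through calcium-dependent contacts, and their cytoplasmic tails are tied to the actin cytoskeleton through catenins. CDH1 encodes E-cadherin, the main cadherin of adherens junctions in epithelia. CDH2 encodes N-cadherin and CDH11 encodes cadherin-11 (OB-cadherin), which are known from fibroblasts and other mesenchymal cells. CDH3 encodes P-cadherin, which in the mammary gland is a cadherin of the basal, myoepithelial layer. A loss of N-cadherin with a gain of E-cadherin is the classical mark of a mesenchymal-to-epithelial change, and the repressors of the SNAI, ZEB and TWIST families are known to act on the CDH1 promoter.

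The goat cells were profiled one by one in droplets, by sequencing transcript 3′ ends. BFRTV0d (3 samples) were ear fibroblasts at day 0, BFRTV4d (3 samples) the same kind of cells after 4 days in an induction medium named BFRTV, and BFRTV8d (2 samples) after 8 days. CiMECs (1 sample) were day-8 cells passaged further in a medium for goat mammary epithelial cells on Matrigel, a basement membrane extract, and GMECs (2 samples) were naturally derived mammary epithelial cells. The sources used here give neither the passage of the CiMECs nor the number, age or strain of the animals. The labels call both BFRTV8d and CiMECs induced mammary epithelial cells, and the series' design text gives BFRTV8d 3 replicates where the labels list 2 samples. Sample titles within a group differ only in a numbered suffix, and nothing says that they were separate cultures. The samples of a group were pooled in 1 table, and the cell names do not tell them apart, so each group could be read only as 1 pooled library without a replicate. Whether its samples were separate libraries or lanes is not stated. No significance test was possible, all intervals are 95% intervals of counting error, and every difference is one between libraries.

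The tables held 10670, 10203, 10152, 5188 and 5641 barcodes (BFRTV0d, BFRTV4d, BFRTV8d, CiMECs, GMECs), with a median of 9089 to 12535 UMIs per barcode outside ribosomal protein genes. The BFRTV tables listed 0 ribosomal protein genes. The CiMECs and GMECs tables listed 74, which took 25.6% and 35.0% of their UMIs, and they reached down to barcodes of 346 and 348 UMIs against 1951 or more in the BFRTV tables. Levels are therefore counts per 1000000 UMIs outside ribosomal protein genes (CPM). Where CiMECs are compared with BFRTV8d, the set of tables and the group cannot be told apart. Pairs of tables shared 37 to 147 barcode sequences. Among 17 epithelial markers 15 were listed in every table, with KRT15 and KRT17 not listed. Their summed level was 2145 CPM in BFRTV0d, 7028 CPM in BFRTV4d, 15210 CPM in BFRTV8d, 20051 CPM in CiMECs and 29808 CPM in GMECs. The summed level of 14 fibroblast markers was 12233, 2814, 329, 14.8 and 0.97 CPM in the same order. In GMECs 11 of these 14 markers, collagen I and III genes included, were not listed.

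The results showed that CDH1 was higher in each successive table. Its level was 12.3 CPM in BFRTV0d (1441 UMIs), 26.1 CPM in BFRTV4d, 59.6 CPM in BFRTV8d, 86.9 CPM in CiMECs and 127 CPM in GMECs. The counting intervals of the 5 values did not overlap, from 11.6 to 12.9 CPM in BFRTV0d up to 125 to 130 CPM in GMECs. CDH2 ran in the opposite order. Its level was 55.5 CPM in BFRTV0d, 13.9 CPM in BFRTV4d, 2.97 CPM in BFRTV8d, 2.27 CPM in CiMECs and 0.83 CPM in GMECs. The neighbours BFRTV8d (2.65 to 3.32 CPM) and CiMECs (1.93 to 2.64 CPM) lay closest in this order.

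CDH3 was highest in the table of day 8 and low in both tables of mammary epithelial medium. Its level was 5.95 CPM in BFRTV0d, 31.6 CPM in BFRTV4d, 66.4 CPM in BFRTV8d, 3.35 CPM in CiMECs and 0.64 CPM in GMECs. CDH3 was thus higher together with CDH1 over the 8 days, while in CiMECs and GMECs CDH1 was high and CDH3 low. CDH11 was highest in the day-0 fibroblasts. Its level was 227 CPM in BFRTV0d (26675 UMIs), 71.1 CPM in BFRTV4d and 11.2 CPM in BFRTV8d. CDH11 was not listed in CiMECs or GMECs, where a gene needed at least 6 cells to be listed, so its level there can be given only as a floor of 0.083 CPM.

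**Figure D1:**
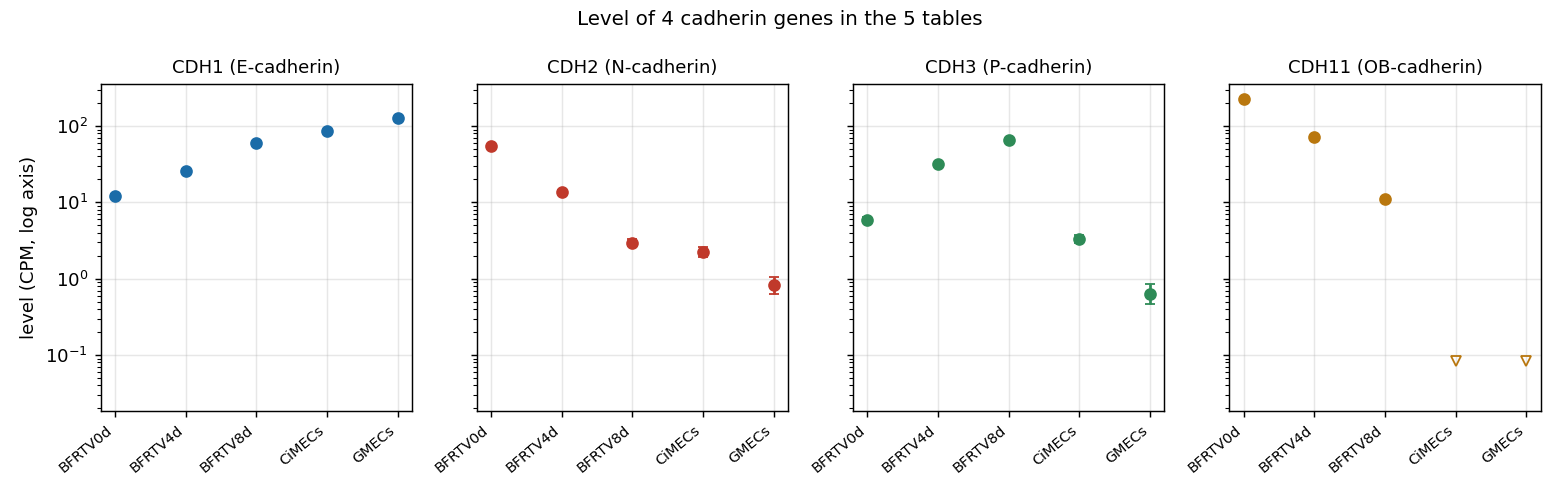
Level of CDH1, CDH2, CDH3 and CDH11 in CPM on a log axis in the 5 tables, 1 library each; points are levels, bars their 95% counting intervals (mostly smaller than the point) and open triangles the floor of an unlisted gene. CDH1 ran from 12.3 to 127 CPM, CDH2 from 55.5 down to 0.83 CPM, CDH3 peaked at 66.4 CPM in BFRTV8d, and CDH11 was at the floor in CiMECs and GMECs.

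The ratio of UMIs of 2 genes within a table does not depend on how the table is scaled. For each CDH2 UMI BFRTV0d held 0.221 CDH1 UMIs (0.208 to 0.234), BFRTV4d 1.88 (1.77 to 2.01), BFRTV8d 20.1 (17.9 to 22.6), CiMECs 38.3 (32.8 to 45.0) and GMECs 153 (119 to 201). The E-cadherin to N-cadherin ratio was thus higher in every table than in the one before it, with no overlap of intervals. For each CDH3 UMI BFRTV0d held 2.06 CDH1 UMIs, BFRTV4d 0.825, BFRTV8d 0.897, CiMECs 26.0 and GMECs 199.6. This ratio was lowest during induction and highest in GMECs. The ratio of CDH3 to CDH2 UMIs was 0.107, 2.28, 22.4, 1.48 and 0.767 in the same order of tables. These ratios are compared between tables and are not ratios of transcripts per length.

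The first question was what differed after 4 days of induction, in BFRTV4d against BFRTV0d. All 4 members passed 2-fold, CDH1 and CDH3 upward and CDH2 and CDH11 downward. CDH1 was 2.13-fold higher (2.00 to 2.27) and CDH3 5.32-fold higher (4.90 to 5.78), while 13.4% of 8949 genes passed 2-fold upward. CDH2 was 4.00-fold lower (3.78 to 4.24) and CDH11 3.19-fold lower (3.11 to 3.28), while 25.4% of genes passed it downward. Genes were compared if they reached 10 CPM in 1 of the 2 tables. CDH3 reached this in BFRTV4d and BFRTV8d but not in BFRTV0d or CiMECs. CDH2 did not reach it in BFRTV8d, and CDH11 was not listed in CiMECs. Where these genes were called against those tables, they passed the minimum only through the other table. This fixed their direction, so their calls beside the shares of all genes are a description.

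Between BFRTV4d and BFRTV8d the same directions held. CDH1 was 2.28-fold higher (2.18 to 2.39) and CDH3 2.10-fold higher (2.01 to 2.19), against 10.7% of 8469 genes called higher. CDH2 was 4.67-fold lower (4.13 to 5.30) and CDH11 6.37-fold lower (5.98 to 6.78), against 7.1% called lower. Over the whole 8 days CDH1 was 4.86-fold higher (4.59 to 5.15) and CDH3 11.2-fold higher (10.3 to 12.1), where 19.7% of 9317 genes were called higher. CDH2 was 18.7-fold lower (16.7 to 21.0) and CDH11 20.3-fold lower (19.2 to 21.6), where 28% were called lower. The comparison of 8 days shares its tables with both others.

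The comparison of CiMECs with BFRTV8d asks what passaging in mammary epithelial medium changed, and it crosses the 2 sets of tables. Of the 3 members compared here, CDH3 and CDH11 were lower and CDH1 stayed under 2-fold. CDH3 was 19.8-fold lower (17.4 to 22.6), a log2 fold of -4.31 that was -3.58 under TMM and -3.51 under median-of-ratios scaling. CDH11 was not listed in CiMECs and can be given only at the floor of 6 counts, where it was 134.6-fold lower. This floor is a listing limit and not a count, so no counting interval applies. CDH3 and CDH11 passed 10 CPM only through BFRTV8d, at 66.4 and 11.2 CPM, which fixed their direction. The log2 fold of CDH11 at this floor was -7.07, against -6.34 under TMM and -6.27 under median-of-ratios scaling. In this comparison 43.3% of 8197 genes were at least 2-fold lower and 9.94% higher. CDH1 was 1.46-fold higher (1.41 to 1.51), and it passed 2-fold when the tables were scaled by TMM or median-of-ratios factors. CDH2 was under 10 CPM in both tables. Its value was 1.31-fold lower (1.08 to 1.59), and this direction turned with both of these scalings.

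The comparison of CiMECs with GMECs sets induced against natural mammary epithelial cells. Only CDH1 reached 10 CPM, and it was 1.46-fold lower in CiMECs (1.42 to 1.51), short of 2-fold. This difference depended on the scaling, with a log2 fold of -0.55 that was -0.04 under TMM and -0.02 under median-of-ratios scaling. Here 26% of 7263 genes were at least 2-fold lower in CiMECs and 5.53% higher. CDH2 and CDH3 were 2.73-fold (2.02 to 3.73) and 5.25-fold (3.82 to 7.37) higher in CiMECs, at levels of 3.35 CPM or less. CDH11 was not listed in either table and has no fold.

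The median log2 fold of all genes compared was not 0 in these comparisons, and it depended on the scaling. It was -0.39 for BFRTV4d over BFRTV0d, 0.12 for BFRTV8d over BFRTV4d, -0.29 for BFRTV8d over BFRTV0d, -0.78 for CiMECs over BFRTV8d and -0.51 for CiMECs over GMECs. Relative to this median, CDH1 stood at 1.48, 1.07, 2.57, 1.33 and -0.04 on the log2 scale in the same order. CDH2 stood at -1.61, -2.34 and -3.93 in the first 3 comparisons. CDH3 stood at 2.80, 0.95 and 3.77 in these and at -3.53 in CiMECs over BFRTV8d. CDH11 stood at -1.28, -2.79 and -4.06. CDH1 in CiMECs thus lay at the median of all genes relative to GMECs. Of the genes called, 34.4% were higher in BFRTV4d than BFRTV0d, against 46.2% (TMM) and 47.2% (median of ratios). In CiMECs over BFRTV8d the share was 18.7%, against 8.45% (all UMIs), 51.5% (TMM) and 55.4% (median of ratios). In CiMECs over GMECs it was 17.5%, against 32.1%, 59.5% and 62.0%.

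The members were then read within cells of each table. Cells with at least 5 marker UMIs were split by whether epithelial markers held more than 50% of their epithelial and fibroblast marker UMIs (epithelial range) or not (fibroblast range), with no cadherin among the markers. A range is a range of a score and not a cell type. The epithelial range held 750 cells (7.03%) in BFRTV0d, 5397 (52.9%) in BFRTV4d and 9793 (96.5%) in BFRTV8d. It held 5161 cells (99.5%) in CiMECs, where 4 cells fell in the fibroblast range, and 5635 (99.9%) in GMECs. Near the cut, at an epithelial share of 33.3 to 66.7%, lay 80, 449 and 68 cells of the BFRTV tables. The library labelled as day-0 ear fibroblasts therefore contained cells in which keratins and other epithelial markers prevailed, at a median of 208.5 epithelial and 10 fibroblast marker UMIs per cell.

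These 750 cells carried most of the E-cadherin and P-cadherin signal of day 0. They held 89.1% of the CDH1 UMIs and 86.1% of the CDH3 UMIs of BFRTV0d but 5.09% of its CDH2 and 1.38% of its CDH11 UMIs. Their median depth was 16532 UMIs against 9902 UMIs in the fibroblast range, and the part of depth in the values of this range was not tested. The CDH1 UMIs of day 0 were also concentrated in few cells. In BFRTV0d 85 cells with at least 5 CDH1 UMIs held 41.1% of them, and a CDH1-positive cell held 2.52 UMIs on average against 1.39 in BFRTV4d and 1.48 in BFRTV8d.

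Within the epithelial range CDH1 was not higher after induction than before it. Its level there was 89.7 CPM in BFRTV0d (84.9 to 94.7), 45.5 CPM in BFRTV4d (43.7 to 47.2) and 61.9 CPM in BFRTV8d (60.3 to 63.5). BFRTV8d was 1.45-fold lower than BFRTV0d in this range (1.36 to 1.54), while the whole table was 4.86-fold higher. CiMECs with 87.0 CPM and GMECs with 127 CPM stood above BFRTV8d. In the fibroblast range CDH1 was 1.52 CPM in BFRTV0d, 3.17 CPM in BFRTV4d and 6.91 CPM in BFRTV8d (4.66 to 9.86, 359 cells). Without the cells near the cut these were 0.88, 2.22 and 4.67 CPM. The epithelial markers moved the same way in the fibroblast range, with a median of 1, 3 and 12 UMIs per cell, and their part in the CDH1 values was not tested.

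CDH3 behaved differently from CDH1 within the epithelial range. Its level there was 42.1 CPM in BFRTV0d, 55.0 CPM in BFRTV4d and 68.8 CPM in BFRTV8d, so that BFRTV8d was 1.64-fold higher than BFRTV0d (1.51 to 1.78). It was 3.35 CPM in CiMECs, 20.5-fold lower than in BFRTV8d (18.1 to 23.4), and 0.64 CPM in GMECs. In the fibroblast range CDH3 was 0.94, 3.93 and 10.8 CPM over the 3 days, and 0.61, 2.96 and 9.08 CPM without the cells near the cut. Epithelial-range cells exceeded fibroblast-range cells 44.7-fold in BFRTV0d, 14-fold in BFRTV4d and 6.36-fold in BFRTV8d for CDH3. For CDH1 the same ratios were 58.9-fold, 14.3-fold and 8.96-fold. Both sets of ratios rest on the low fibroblast-range values, which were lower still without the cells near the cut.

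CDH2 was lower with time in both ranges. In the epithelial range its level was 23.2 CPM in BFRTV0d, 8.48 CPM in BFRTV4d and 2.34 CPM in BFRTV8d, a 9.90-fold difference over 8 days (8.34 to 11.8). The level of 2.27 CPM in CiMECs was the same within counting error (fold 0.969, 0.789 to 1.19). In the fibroblast range CDH2 was 60.0, 20.3 and 17.3 CPM. BFRTV4d was 2.96-fold lower than BFRTV0d there (2.77 to 3.17), whereas BFRTV8d and BFRTV4d differed by 1.17-fold with an interval that includes 1 (0.928 to 1.51).

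In the fibroblast range CDH11 differed less between the days than in the whole tables. It was 255 CPM in BFRTV0d, 132 CPM in BFRTV4d and 139 CPM in BFRTV8d, a 1.84-fold difference over 8 days (1.70 to 2.00) where the whole table differed 20.3-fold. BFRTV8d over BFRTV4d was 1.05-fold (0.962 to 1.14) in this range. In the epithelial range CDH11 was 25.7, 19.4 and 5.58 CPM. Without the cells near the cut these were 21.9, 15.0 and 5.19 CPM. In levels of whole tables, fewer cells of a kind and less RNA per cell cannot be told apart.

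**Figure D2:**
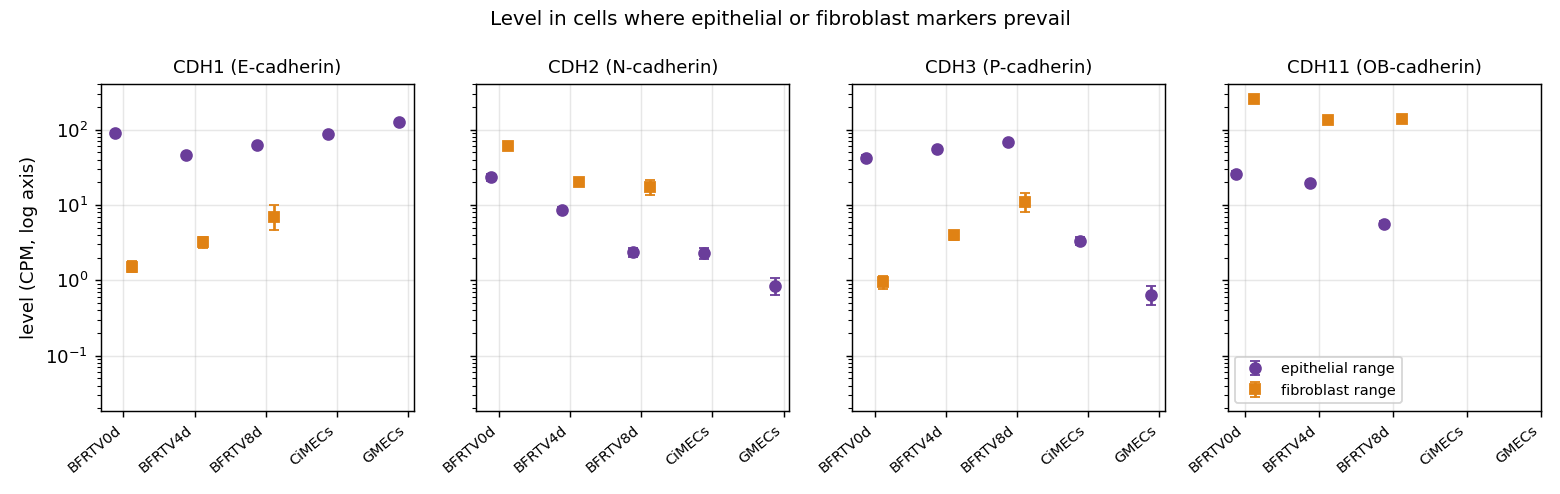
Level in CPM on a log axis of the 4 cadherins in the epithelial range (circles) and the fibroblast range (squares) of each table, shown for ranges of at least 50 cells, with 95% counting intervals. CDH1 in the epithelial range was 89.7 CPM in BFRTV0d and 61.9 CPM in BFRTV8d, and CDH2 was lower with time in both ranges. CDH3 was lower in CiMECs than BFRTV8d. In the fibroblast range CDH11 was 255 CPM in BFRTV0d, 132 CPM in BFRTV4d and 139 CPM in BFRTV8d.

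Set against the markers of the same cells, CDH1 was highest in BFRTV0d and lowest in BFRTV4d, with intervals apart (5.19 to 5.80 and 3.51 to 3.79). The epithelial range held 5.49, 3.64 and 3.91 CDH1 UMIs per 1000 epithelial marker UMIs on days 0, 4 and 8, and 4.34 and 4.27 in CiMECs and GMECs. CDH3 held 2.57, 4.41, 4.35, 0.167 and 0.0214 per 1000 in the same order, lowest in GMECs.

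Along 6 bins of the epithelial share of marker UMIs the cadherins ran in opposite directions in BFRTV4d. From the bin under 10% to the bin of 90% or more, CDH1 was 1.86, 3.23, 17.1, 27.6, 32.9 and 48.7 CPM. CDH3 was 2.44, 3.77, 20.9, 26.1, 35.5 and 60.2 CPM along the same bins. Both genes were higher in each successive bin, with 3469, 1118, 210, 328, 394 and 4683 cells. CDH11 was 141, 116, 97.5, 77.9, 60.7 and 8.74 CPM. CDH2 was 21.0, 18.7, 17.4, 17.1, 13.3 and 7.08 CPM, the flattest of the 4 courses. In BFRTV0d the courses were less even. CDH1 reached 75.2 CPM already in the bin of 30 to 50% (58.9 to 94.7, 49 cells). It was 65.6 CPM in that of 50 to 70%, 67.1 CPM in that of 70 to 90% and 95.8 CPM in the last. CDH2 there was 60.2, 69.4 (27 cells), 35.5, 36.7, 45.2 and 18.0 CPM along the 6 bins. CDH3 was 0.50, 6.94, 44.9, 35.6, 23.8 and 46.0 CPM. In BFRTV8d 9644 of the cells were in the last bin, where CDH1 was 62.4, CDH2 2.14, CDH3 69.6 and CDH11 4.24 CPM.

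**Figure D3:**
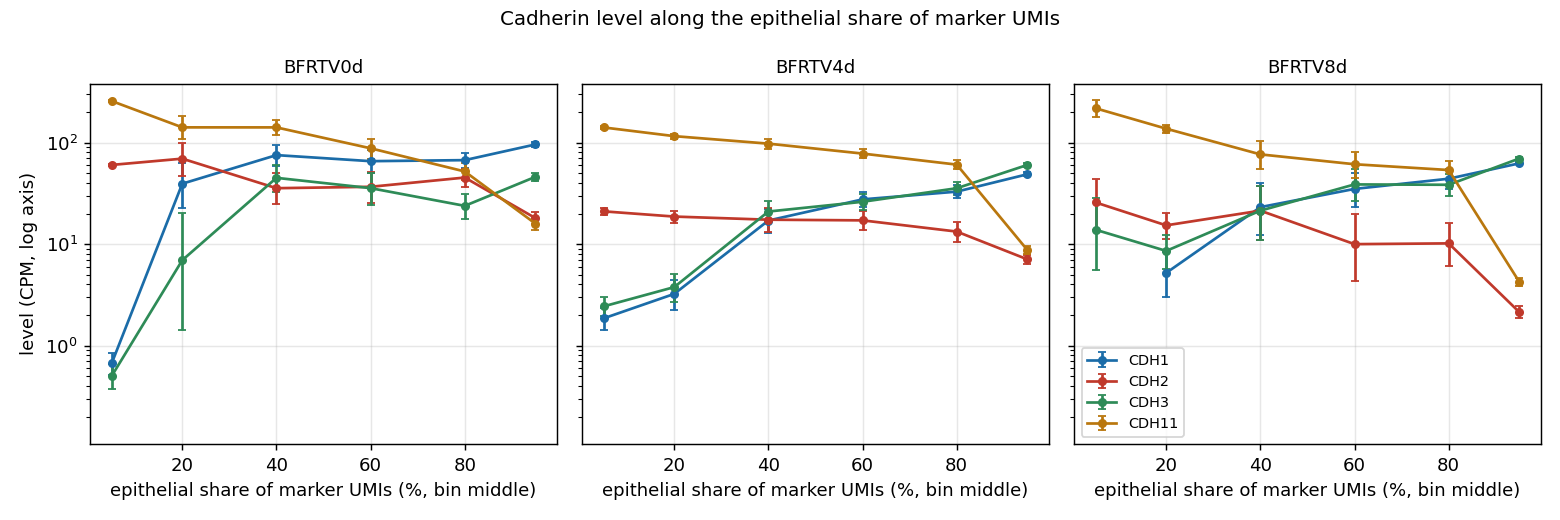
Level in CPM on a log axis of the 4 cadherins in cells binned by the epithelial share of their epithelial and fibroblast marker UMIs, in BFRTV0d, BFRTV4d and BFRTV8d; points stand at bin middles with 95% counting intervals, and a bin with 0 UMIs is not drawn. In BFRTV4d CDH1 went from 1.86 to 48.7 CPM and CDH11 from 141 to 8.74 CPM across the bins.

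The share of cells with at least 1 UMI was compared after every cell was thinned to 5000 UMIs, which left out 106, 476, 410, 1247 and 1113 shallower barcodes in table order. CDH1 was found in 2.75% of cells of BFRTV0d (2.45 to 3.09), 11% of BFRTV4d, 24.7% of BFRTV8d, 35.7% of CiMECs and 47.1% of GMECs (45.6 to 48.5). Unthinned, these shares were 5.35, 19.7, 41.1, 57.3 and 67.7%. CDH2 was found in 24.3, 6.59, 1.25, 0.964 and 0.420% of thinned cells (unthinned 41.4, 12.7, 2.71, 2.74 and 1.05%). CDH3 was found in 1.56, 13.4, 27.4, 1.62 and 0.420% (unthinned 3.75, 23.5, 44.7, 4.32 and 0.798%). CDH11 was found in 64.6, 26.3 and 4.02% of cells of the BFRTV tables (unthinned 83.6, 39.2 and 7.11%). The order of the tables by thinned shares was that of the CPM levels for CDH1, CDH2 and CDH11. For CDH3 the shares in BFRTV0d and CiMECs were close (1.56 and 1.62%) while its CPM was higher in BFRTV0d, so no order is read for this pair.

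The share of thinned cells with a UMI was also read by range. Whether the lower shares are background was not tested. Thinned cells of the fibroblast range held a CDH1 UMI in 0.520, 1.31 and 4.00% of BFRTV0d, BFRTV4d and BFRTV8d, against 32.1, 19.9 and 25.5% in the epithelial range. For CDH3 the shares were 0.367, 1.67 and 5.71% against 17.3, 24.2 and 28.2%. For CDH11 they were 68.7, 46.5 and 46.9% in the fibroblast range against 10.6, 7.74 and 2.43% in the epithelial range. For CDH2 they were 25.2, 9.22 and 8.57% against 12.05, 4.17 and 0.980%. The share of each gene thus differed between the ranges in each BFRTV table, in the direction of its CPM.

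Co-detection asks whether a cell holds UMIs of 2 cadherins more or less often than their shares alone give. CDH1 and CDH2 were found together in 27 thinned cells of BFRTV0d where 70.6 would be expected, a ratio of 0.382 (0.252 to 0.556). In BFRTV4d 30 cells held both where 70.4 would be expected, a ratio of 0.426 (0.287 to 0.608). In BFRTV8d 16 cells held both against 30.2, a ratio of 0.530 (0.303 to 0.861). In CiMECs the ratio was 1.03 (0.564 to 1.73) and in GMECs 1.12 (0.536 to 2.06), from 14 and 10 cells with both. E-cadherin and N-cadherin were thus found together less often than their shares give in the 3 BFRTV tables, and the intervals in the other 2 were too wide to tell either way. With no thinning the ratio in BFRTV0d was 0.745 (0.639 to 0.863), and with thinning to 3000 UMIs that in BFRTV4d was 0.709 with an interval that includes 1 (0.433 to 1.09).

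Within the epithelial range the ratios were closer to 1. There the ratio of CDH1 with CDH2 was 0.623 (0.369 to 0.984) in BFRTV0d, 0.595 (0.385 to 0.879) in BFRTV4d and 0.682 (0.390 to 1.11) in BFRTV8d. These values depended on the thinning. With no thinning they were 0.895 (0.746 to 1.07), 0.716 (0.588 to 0.864) and 0.911 (0.723 to 1.13), and thinned to 3000 UMIs the value in BFRTV4d was 0.932 (0.522 to 1.54). A lower joint detection of E-cadherin and N-cadherin within the epithelial range was therefore not settled by these counts. In the fibroblast range the ratio of this pair was 0.70 (0.320 to 1.33) in BFRTV0d and 0.889 (0.289 to 2.07) in BFRTV4d, from 9 and 5 cells. CDH1 with CDH11 gave 0.282, 0.281 and 0.619 over all cells of the BFRTV tables. Within the epithelial range this pair gave 0.788 (0.481 to 1.22), 0.641 (0.476 to 0.845) and 0.894 (0.668 to 1.17). CDH3 with CDH11 gave 0.413, 0.321 and 0.690 over all cells.

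CDH1 and CDH3 were found together more often than their shares give in BFRTV0d and BFRTV4d. In BFRTV0d 49 cells held both where 4.55 would be expected, a ratio of 10.8 (7.98 to 14.3), and in BFRTV4d the ratio was 1.74 (1.53 to 1.97). Within the epithelial range the ratio was 1.04 (0.751 to 1.40) in BFRTV0d, 1.01 (0.891 to 1.15) in BFRTV4d and 1.01 (0.937 to 1.09) in BFRTV8d. Among epithelial-range cells E-cadherin and P-cadherin UMIs were thus found together as often as their shares give, within these intervals. In the fibroblast range of BFRTV0d 6 cells held both where 0.187 would be expected, a ratio of 32.1 (11.8 to 69.8). With no thinning the ratio was 19.3 (10.8 to 31.9). Before thinning, 49 of the 9919 cells of this range lay at an epithelial share of 30 to 50%. They held 72 of its 157 CDH1 UMIs and 43 of its 97 CDH3 UMIs. The part of these cells in the ratio was not tested. CDH2 with CDH11 gave 1.04 (0.990 to 1.09) in BFRTV0d, 1.42 (1.25 to 1.62) in BFRTV4d and 3.87 (2.33 to 6.04) in BFRTV8d. Within the fibroblast range this pair gave 1.00, 1.08 and 0.783, each with an interval that includes 1. Within the epithelial range of BFRTV8d 8 cells held both where 2.23 would be expected.

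**Figure D4:**
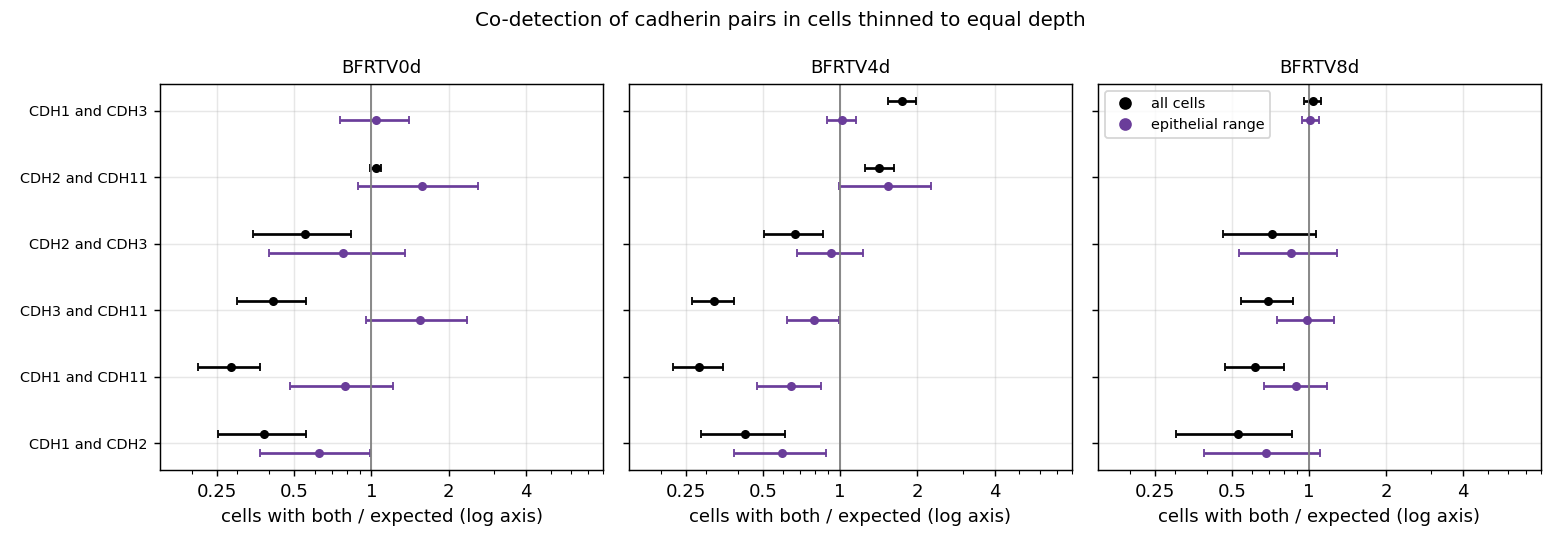
Number of cells with UMIs of both cadherins over the number expected from their shares, on a log axis, for 6 pairs in the 3 BFRTV tables, over all cells (black) and in the epithelial range (purple), with 95% intervals; pairs with fewer than 5 expected cells are not drawn. CDH1 with CDH2 stood at 0.382, 0.426 and 0.530 over all cells, and CDH1 with CDH3 stood at 1.01 in the epithelial range of BFRTV4d and BFRTV8d.

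Cells were also sorted by their cadherins and read for their markers. In BFRTV4d 1039 thinned cells held CDH1 without CDH2, and 94.6% of them were in the epithelial range, with a median of 54 epithelial and 1 fibroblast marker UMIs. The 611 cells with CDH2 without CDH1 were in the fibroblast range in 69.6% of cases, with a median of 3 epithelial, 21 fibroblast and 15 smooth muscle marker UMIs. The 30 cells with both held a median of 40.5 epithelial and 1 fibroblast marker UMIs. In BFRTV8d 71.7% of the 106 cells with CDH2 without CDH1 were in the epithelial range. This was under the 95.8% of cells with neither gene and the 99.4% of cells with CDH1 without CDH2. In BFRTV4d 79 cells held CDH1 and CDH11 together. Of these, 27.8% lay near the cut of the score and 19% were called doublets by Scrublet, against 3.23% and 4.55% of the 990 cells with CDH1 without CDH11. The part of doublets in this pair was not tested.

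CDH3 varied with KRT14, a basal keratin and itself 1 of the epithelial markers, within the epithelial range. Among thinned cells of BFRTV8d, CDH3 was 35.0 CPM in 492 cells with 1 to 4 KRT14 UMIs (28.0 to 43.2), 62.1 CPM in 3943 cells with 5 to 19 (58.7 to 65.7) and 78.4 CPM in 4914 cells with 20 or more (75.0 to 82.0). CDH1 ran the other way there, at 95.1 CPM (83.3 to 108), 64.8 CPM (61.3 to 68.5) and 57.1 CPM (54.1 to 60.1). In BFRTV4d CDH3 was 38.2, 58.2 and 63.1 CPM in the same bins. CDH1 was 50.6 (43.5 to 58.6), 45.7 (42.5 to 49.0) and 41.6 CPM (36.2 to 47.7) there, with intervals that overlap. In CiMECs, 2527 cells without a KRT14 UMI held 2.53 CPM of CDH3 (1.73 to 3.58). There 225 cells with 5 to 19 held 5.33 CPM (1.96 to 11.6, 6 UMIs) and 49 cells with 20 or more 12.2 CPM (2.53 to 35.8). In the bin of 5 to 19 CDH3 in CiMECs was thus well under the 62.1 CPM of BFRTV8d. CDH1 in CiMECs was 94.5 CPM in the bins of 0 and of 1 to 4. It was 108 CPM in that of 5 to 19 (90.1 to 129) and 69.4 CPM in that of 20 or more (40.4 to 111). In GMECs 4379 of 4528 cells held no KRT14 UMI. These bins were chosen after the values by table had been seen.

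The partners of the cadherins did not all move with them. Of 19 catenins and adherens junction partners on the list 14 were found, and they are given as the number past 2-fold among those at 10 CPM. In BFRTV4d over BFRTV0d 4 of 11 were higher and 0 lower, with a median log2 fold of 0.51 against -0.39 for all genes, of which 13.4% were higher and 25.4% lower. In BFRTV8d over BFRTV0d 5 of 12 were higher and 2 lower, with a median of 0.72 against -0.29 for all genes, of which 19.7% were higher and 28% lower. NECTIN1, NECTIN2 and NECTIN4 passed the minimum of 10 CPM there only through BFRTV8d. In BFRTV4d over BFRTV0d NECTIN1 and NECTIN2, both among the genes called higher, passed it only through BFRTV4d. The minimum fixed the direction of these genes. NECTIN1, an adhesion protein that joins adherens junctions, was 8.38 CPM in BFRTV0d, 35.9 CPM in BFRTV4d and 101.6 CPM in BFRTV8d, and EPCAM, an epithelial adhesion molecule, was 25.6, 68.3 and 159 CPM. JUP, plakoglobin, which binds the tails of classical and desmosomal cadherins, was 36.7, 72.7 and 142 CPM. VCL, vinculin, which links junctions to actin, was 173, 246 and 66.0 CPM and so 2.61-fold lower over 8 days. The second gene lower over 8 days was CTNNAL1, a relative of the alpha-catenins, which passed the minimum only through BFRTV0d.

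The core catenins stayed within 2-fold over the induction in CPM. CTNNA1, alpha-catenin, was 148, 155 and 211 CPM on days 0, 4 and 8. CTNNB1, beta-catenin, was 226, 116 and 146 CPM. CTNND1, p120-catenin, was 37.9, 50.2 and 72.3 CPM, and over 8 days it passed 2-fold with TMM or median-of-ratios factors. In CiMECs CTNNB1 was 51.6 CPM and CTNND1 21.1 CPM, 2.84-fold (2.74 to 2.94) and 3.43-fold (3.25 to 3.63) lower than in BFRTV8d, while CTNNA1 was 287 CPM, 1.36-fold higher (1.34 to 1.39). In this comparison 1 of 11 genes of the list, EPCAM at 393 CPM, was higher and 6 were lower, with a median log2 fold of -1.35 against -0.78 for all genes, of which 43.3% were lower. With TMM factors the counts were 3 and 3, and with median-of-ratios factors 3 and 2. NECTIN1 and NECTIN3, both among the genes called lower, passed the minimum only through BFRTV8d, which fixed their direction. NECTIN1 was 2.70 CPM in CiMECs and 2.54 CPM in GMECs, and like CDH3 it was high in BFRTV8d and low in both other epithelial tables. Between CiMECs and GMECs 0 of 11 were higher and 3 lower, CTNNB1, CTNNAL1 and the nectin NECTIN3, which was not listed in CiMECs, where 26% of all genes were lower. With TMM factors 2 were lower. CTNNAL1 and NECTIN3 passed the minimum here only through GMECs, which fixed their direction.

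The transcriptional repressors of CDH1 were lower after 8 days of induction, with SNAI2 as the exception. Of 6 repressors, each at 10 CPM or more in 1 of the tables, 4 were lower in BFRTV4d than BFRTV0d, with a median log2 fold of -1.63 against -0.39 for all genes, of which 25.4% were lower. In BFRTV8d 5 were lower than in BFRTV0d, with a median of -3.07 against -0.29 for all genes, of which 28% were lower. These 5 were under 10 CPM in BFRTV8d and passed the minimum through BFRTV0d, so this count is a description. SNAI1 was 50.3, 13.5 and 2.72 CPM on days 0, 4 and 8. ZEB2 was 76.4, 12.3 and 2.10 CPM, 36.4-fold lower over 8 days (31.8 to 41.8). TWIST2 was 138, 30.6 and 7.68 CPM, and TWIST1 was 34.1, 13.3 and 8.71 CPM. ZEB1 was 23.8 CPM in BFRTV0d and 30.2 CPM in BFRTV4d, under 2-fold, and 6.06 CPM in BFRTV8d. SNAI2 was 166 CPM in BFRTV0d, 96.4 CPM in BFRTV4d and 213 CPM in BFRTV8d, the only one of the 6 that was higher in BFRTV8d than BFRTV4d (2.21-fold, 2.16 to 2.26). The table with the highest SNAI2 level was thus the BFRTV table with the highest CDH1 level. In CiMECs SNAI2 was 6.06 CPM, 35.2-fold lower than in BFRTV8d (32.0 to 38.8), and in GMECs 14.4 CPM. The other 5 repressors were at 2.24 CPM or less, or not listed, in both.

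Regulators of epithelial identity were read next. Of 7 such genes 4 reached 10 CPM in the comparison over 8 days. These 4 were under 5 CPM in BFRTV0d and passed the minimum only through BFRTV8d, which fixed their direction. ESRP1, a splicing regulator of epithelial cells, was 4.89, 19.1 and 63.3 CPM on days 0, 4 and 8, 23.2 CPM in CiMECs and 63.7 CPM in GMECs. OVOL2, a zinc finger repressor of mesenchymal genes, was 0.77, 9.66, 23.4, 11.2 and 29.7 CPM in the 5 tables. OVOL1 was 1.11, 2.92, 21.0, 0.44 and 0.61 CPM and GRHL1, a grainyhead-like factor, 1.01, 5.42, 15.2, 1.72 and 2.01 CPM, so that both reached 10 CPM in BFRTV8d alone. In CiMECs these 4 were lower than in BFRTV8d, 2 of them with TMM factors, where 43.3% of all genes were lower. GRHL1 and OVOL1 passed the minimum there only through BFRTV8d. Between CiMECs and GMECs 3 of 3 were lower (ESRP1, ESRP2 and OVOL2), where 26% of all genes were lower, and 0 of 3 passed 2-fold with TMM factors. ESRP2 passed the minimum only through GMECs.

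Desmosomes are held by cadherins of their own, and their genes were higher after the induction, like CDH1. Of 11 genes 9 were found and 3 reached 10 CPM in each comparison. In BFRTV8d over BFRTV0d 3 were higher, against 19.7% of all genes, and in BFRTV4d over BFRTV0d 2, against 13.4%. PKP3 was under 10 CPM in BFRTV0d and passed the minimum only through the later table, which fixed its direction over the 8 days. In BFRTV8d over BFRTV4d, where CDH1 passed 2-fold, 1 of the 3 did (PKP3), against 10.7% of all genes. DSP, desmoplakin, which anchors keratins, was 20.3, 88.7 and 173 CPM on days 0, 4 and 8, 55.3 CPM in CiMECs and 96.7 CPM in GMECs. DSC3, desmocollin 3, a desmosomal cadherin of basal epithelial layers, was 12.6, 64.9, 83.2, 53.7 and 18.1 CPM. PKP3, plakophilin 3, was 6.99, 11.3, 26.6, 30.3 and 59.4 CPM. Of the 3 genes compared, DSC3 alone passed 2-fold upward in CiMECs over GMECs (2.96-fold, 2.78 to 3.15), where 5.53% of all genes were higher.

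**Figure D5:**
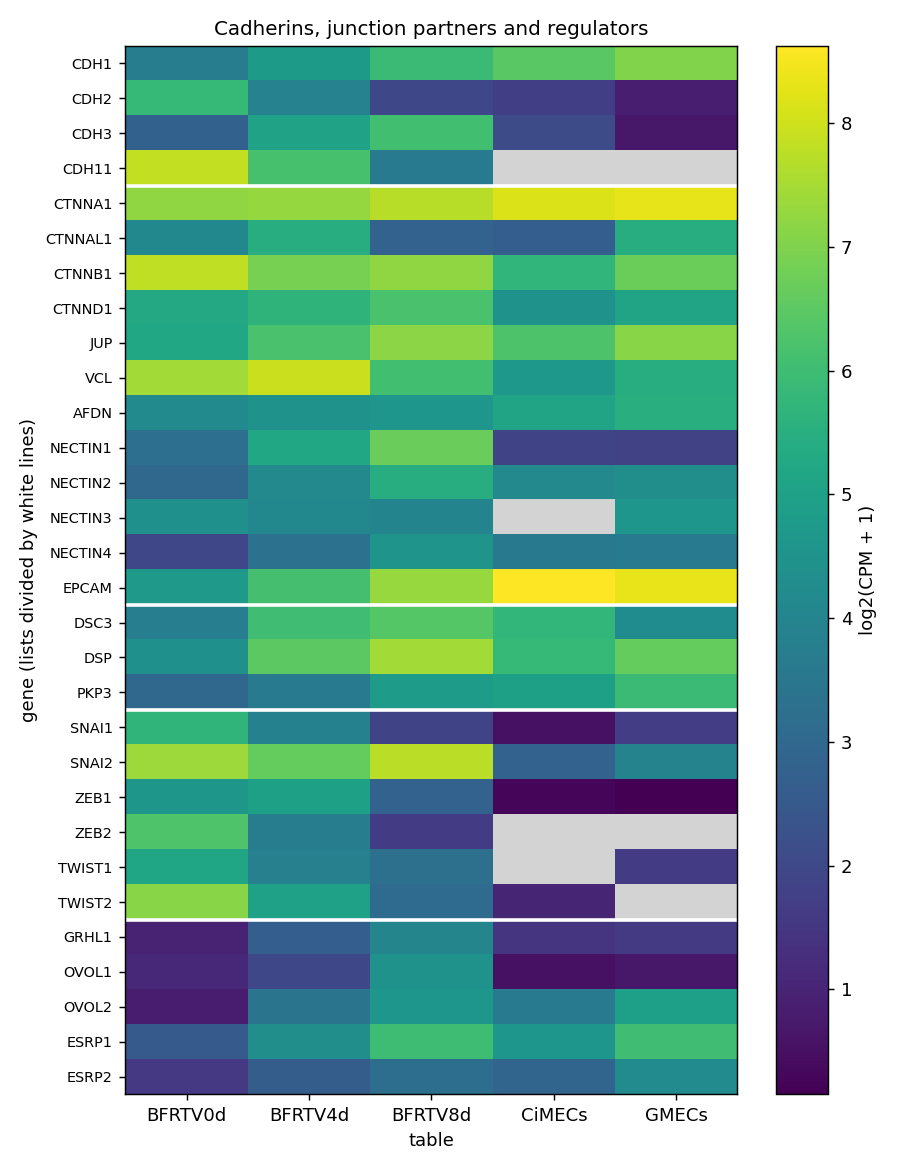
Level as log2(CPM + 1) of the 4 cadherins and of the junction partners, desmosome genes, CDH1 repressors and epithelial regulators that reached 10 CPM in 1 table, in the 5 tables; white lines divide the lists and grey cells mark genes a table does not list. Of the 6 repressors 5 were lower in BFRTV8d than BFRTV0d and SNAI2 was at 213 CPM in BFRTV8d, and NECTIN1 and CDH3 were high in BFRTV8d and low in CiMECs and GMECs.

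Among 19 other cadherins 7 were found and 2 reached 10 CPM in the comparisons of the BFRTV tables. CDH13, T-cadherin, a cadherin anchored to the membrane by a lipid, was 246, 84.5 and 109 CPM on days 0, 4 and 8, 24.7 CPM in CiMECs and 41.5 CPM in GMECs. It was 2.91-fold lower in BFRTV4d than BFRTV0d (2.84 to 2.98), where 25.4% of all genes were lower. CDH24 was 10.5, 13.5, 16.7, 2.57 and 2.73 CPM. Both were lower in CiMECs than BFRTV8d past 2-fold, where 43.3% of all genes were lower. CDH24 passed 10 CPM there only through BFRTV8d, which fixed its direction.

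Other cell types were checked by their markers. Of 6 smooth muscle markers 5 were higher in BFRTV4d than BFRTV0d, where 13.4% of all genes were higher and CDH2 and CDH11 were lower. MYH11, MYLK and ACTG2 passed 10 CPM only through BFRTV4d, which fixed their direction. Their sum was 1562, 2745, 627, 3117 and 119 CPM in table order. TAGLN went apart from the others, at 1318 CPM in BFRTV0d, 779 CPM in BFRTV4d, 162 CPM in BFRTV8d and 3070 CPM in CiMECs, where it made up nearly the whole sum. Of 4 markers compared in CiMECs over BFRTV8d TAGLN was higher and 3 were lower, where 9.94% of all genes were higher and 43.3% lower. CNN1, 1 of these 3, passed 10 CPM only through BFRTV8d. Endothelial markers summed to 34.5 CPM in BFRTV0d and 10.6 CPM or less elsewhere, immune markers to 8.20 CPM or less, and CDH5 and PTPRC, defining genes of endothelial and immune cells, were not listed in any table. Schwann cell and melanocyte markers summed to 77.8, 22.8, 6.13, 6.07 and 2.40 CPM, mostly S100B in the BFRTV tables, and were lower over the 8 days as CDH2 and CDH11 were. Neuronal markers summed to 62.0, 170 and 52.7 CPM in the BFRTV tables, nearly all STMN2, and were not listed in CiMECs or GMECs. Chondrocyte markers summed to 54.5, 130, 426, 66.3 and 181 CPM, nearly all SOX9, which is also found in epithelia, and were highest in BFRTV8d as CDH3 was. The defining markers SOX10 (Schwann cells), TUBB3 and SYP (neurons) and COL2A1 (cartilage) were not listed in the BFRTV tables. The part of these markers in the cadherin levels was not tested.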

How the data were processed

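The authors deposited 1 table of UMI counts per gene and barcode for each group, unnormalized, from 10x Genomics 3′ libraries. FastQC 0.10.1 and Cell Ranger are named in the submitters' processing notes, and the genome build is not given in the sources used here. Counts were summed over all barcodes and scaled to CPM of UMIs outside ribosomal protein genes, with exact Poisson intervals. Folds carry exact conditional binomial intervals and shares exact binomial ones. UMIs count molecules, and the intervals cover counting error only. Unlisted genes were set at the fewest cells of a listed gene (11 in the BFRTV tables, 6 in the others). Cells were thinned to 5000 UMIs (seed 1). Barcodes were not filtered further and doublets not removed. Scrublet, run through scanpy 1.11.5, called 5.07% of BFRTV4d barcodes and under 0.06% in the other tables, where it did not work. Alternatives were scaling by all UMIs, by genes of all 5 tables, by edgeR 4.0.16 TMM factors and by median-of-ratios factors, minima of 0 and 50 CPM, a 4-fold limit, and other thinning. The methods were tested on simulated data. Python 3.11.15, numpy 2.4.6 and scipy 1.17.1 were used. The members and lists were chosen with earlier results of these data known, and the KRT14 bins and ratios to epithelial marker UMIs after the levels were seen. Genes named were the members, the members of 5 lists with at least 10 CPM in 1 table, and the 3 genes nearest each member in profile over the 5 tables (log2(CPM + 1)). Symbols matched RefSeq names (assembly ARS1.2) for 16222 of 16603. The sequences of these genes are not analysed here. Reads shared between near-identical genes could not be traced.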

Additional observations from a re-analysis of the deposited data

How the results depend on the processing

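No paired analysis was possible because the samples of a group were pooled in 1 table, and for this reason no replicate could be left out. No member fold past 2-fold reversed its direction. The balance of all genes called did turn in CiMECs over BFRTV8d and in CiMECs over GMECs. More genes were lower than higher there, but more were higher with TMM or median-of-ratios factors. Of the results recomputed with TMM factors 20 moved and 19 did not, with median-of-ratios factors 22 and 17, and per all UMIs 12 and 45. With barcodes of at least 5000 UMIs only, 57 of 57 results stayed within their counting error or 1.5 times their count. The 4-fold limit left 1 member higher and 1 lower in BFRTV4d over BFRTV0d and 0 higher in BFRTV8d over BFRTV4d. In CiMECs over BFRTV8d 1 member, CDH1, was higher under TMM scaling and 1 under median-of-ratios scaling, and 1 was lower under the latter, since CDH11 then missed 10 CPM. The log2 fold of CDH1 there ran from 0.12 (all UMIs) to 1.35 (median-of-ratios), and that of CDH2 was -0.82, 0.34 (TMM) or 0.41 (median-of-ratios). The co-detection ratio of CDH1 with CDH2 was 0.745 in BFRTV0d with no thinning and 0.709 in BFRTV4d thinned to 3000 UMIs, and it stayed under 1 in all 3 BFRTV tables. With at least 2 UMIs of each, 0 cells held CDH1 and CDH2 in the BFRTV tables where 3.75, 0.588 and 0.331 would be expected, with ratio intervals of 0 to 0.984, 6.27 and 11.1. Calls of the lists in CiMECs were lost with TMM factors, 3 to 0 for the epithelial regulators over GMECs.

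Counts of genes past 2-fold depend on the limits by construction. In BFRTV4d over BFRTV0d 444 were higher and 1082 lower with at least 50 CPM, 3346 higher with no minimum, and 479 and 516 past 4-fold. In BFRTV8d over BFRTV4d these were 412 and 219, 1833 and 1785, and 191 and 213. In BFRTV8d over BFRTV0d they were 811 and 1172, 3940 and 4012, and 957 and 914. In CiMECs over BFRTV8d they were 536 and 1141, 1440 and 7252, and 243 and 1453. In CiMECs over GMECs they were 197 and 503, 1344 and 3890, and 161 and 311. In CiMECs over BFRTV8d 431 were higher per all UMIs, 1900 higher and 1787 lower with TMM, and 2029 and 1635 with median-of-ratios factors. In CiMECs over GMECs 1028 were lower per all UMIs, 1028 higher and 700 lower with TMM, and 1081 and 663 with median-of-ratios factors. At this depth CDH2 and CDH3 in CiMECs and GMECs rest on 46 to 242 UMIs, and an absence of CDH11 cannot be told from a level under the floor.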

Other observations

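The genes nearest each cadherin in profile were found among 9318 genes listed in all 5 tables, by the root mean square difference of their log2(CPM + 1) values after each profile was centred. For CDH1 they were C3H1orf210 (0.14; 2.34, 5.81, 16.1, 24.2 and 27.2 CPM from BFRTV0d to GMECs), the unnamed gene2453 (0.15) and PARD6B (0.22; 0.73, 3.43, 11.2, 13.5 and 24.1 CPM), whose product is a subunit of the PAR polarity complex. For CDH2 they were LOC102177672 (0.19), CRYBB1 (0.20) and LOC108634607 (0.21). For CDH3 they were SULF2 (0.27), an extracellular sulfatase, at 4.77, 47.3, 67.5, 3.72 and 0.80 CPM, GSTM3 (0.30), a glutathione transferase, at 38.4, 329, 674, 37.1 and 13.1 CPM, and CNTNAP2 (0.33). CDH11, listed in 3 of 5 tables, was left out. The likeness is over 5 libraries, which share their depth and listing rules. In the RefSeq table CDH3 and CDH1 are neighbours with LOC102170170 as the 1 protein-coding gene between them, and their profiles parted in CiMECs and GMECs. CDH4, R-cadherin, under 10 CPM throughout, was 0.49 CPM in BFRTV0d, 8.81 CPM in BFRTV4d and 2.33 CPM in BFRTV8d, and was singled out after its values were seen.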
